A study of Mus musculus with 8 samples.

Results

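The transcriptomes of mouse leukaemia cells treated with BBC1115 were compared with those of the same cells treated with RVX-208. The comparison took the 2 libraries labelled BBC1115 and the 2 labelled RVX-208, chosen by their treatment labels alone, out of 8 libraries in 4 groups. The other groups, 2 libraries with the solvent DMSO and 2 with OTX-015, are used to place these values. All 20484 gene symbols of the table were considered, and 9975 with at least 1 RPKM (reads divided by transcript length and library size) in at least 2 libraries were tested. All 4 groups were the RN2 line, an engineered acute myeloid leukaemia line of C57BL/6J background that carries MLL-AF9/NRAS G112D as the labels write it. It is a single line, every group carried both alleles, and each group's libraries are labelled as biological replicates, with no word on separate cultures. RNA was taken from bulk cells and made into directional mRNA libraries. RVX-208 (apabetalone) and OTX-015 (birabresib) are known inhibitors of the BET proteins. BBC1115 is a code name, and the study's title places it in a screen of DNA-encoded compound libraries for new chemotypes that target BET proteins. The sources used here give neither dose nor time of treatment, so compound and dose cannot be told apart in any difference below.

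BET proteins, BRD2 and BRD3 among them, hold paired bromodomains, which bind acetylated lysines on histones. The family works with the kinase complex P-TEFb, which releases paused RNA polymerase, and acute myeloid leukaemia cells are known to rely on BET proteins to keep Myc and other growth genes on. RVX-208 favours the second bromodomain of each protein, while OTX-015 binds both. RN2 cells were derived from mouse blood progenitors and have been widely used to study BET inhibition.

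The 15 genes with the largest decreases, Hpgd, Pecam1 and Myc among them, were 17.7 to 63.6 times lower with BBC1115 than with RVX-208. The lists of cholesterol and fatty acid synthesis genes, amino acid stress genes, antiproliferative genes and histone genes were mostly higher. Of the 9975 genes tested, 7332 (73.5%) passed: 2382 (23.9%) were higher and 4950 (49.6%) were lower with BBC1115 (limma on log2(RPKM + 1), Benjamini-Hochberg adjusted p under 0.05). The log2 fold change was at least 1, a 2-fold difference, for 648 higher genes (6.5%) and 1786 lower genes (17.9%). At the other end, 603 genes had a 95% interval within 0.3 of 0 on the log2 scale. The RPKM of the 2 groups did not overlap for 8811 kept genes (88.3%).

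The split between higher and lower calls depended on scaling. The median log2 fold change of all kept genes was -0.26 with the RPKM as deposited. After each library was scaled to its upper quartile the median was 0.00, with 3688 genes higher and 3739 lower, and after quantile normalization 3745 were higher and 3742 lower. Calls that kept their direction as deposited, as TPM and under both other scalings numbered 2097 higher and 3423 lower. Below, a list's median is to be read against -0.26. Its counts of higher and lower members are to be read against the 23.9% higher and 49.6% lower of all kept genes. Where fewer of its members kept their call under all 4 scalings, those counts follow in brackets, in the same order.

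Depth was estimated for each library, and no measure of RNA quality was used. Among the 8 libraries the estimate was highest for DMSO replicate 1, at 17800000 reads. Estimated reads were 10700000 and 12900000 for RVX-208 and 12900000 and 15500000 for BBC1115, and r between replicates across genes was 0.991 to 0.994 in the 4 groups. RVX-208 libraries lay close to DMSO: 9 genes were higher and 8 lower (0.17% of those tested), though 1820 had an unadjusted p under 0.05. In 98.4% of genes the difference between RVX-208 and DMSO was under 0.5 on the log2 scale. Myc was among the 17, at 64.2 and 62.3 RPKM with RVX-208 and 99.7 and 95.9 with DMSO (limma, adjusted p = 0.0355). Egr1, an early response transcription factor, was the other way, at 32.9 and 32.2 RPKM against 12.1 and 12.6 (adjusted p = 8.03e-06). Ccr2, a monocyte chemokine receptor, stood at 10.1 and 9.52 RPKM with RVX-208 and 21.2 and 21.0 with DMSO (adjusted p = 0.000952). For these genes the RVX-208 level itself was already away from DMSO.

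**Figure D1:**
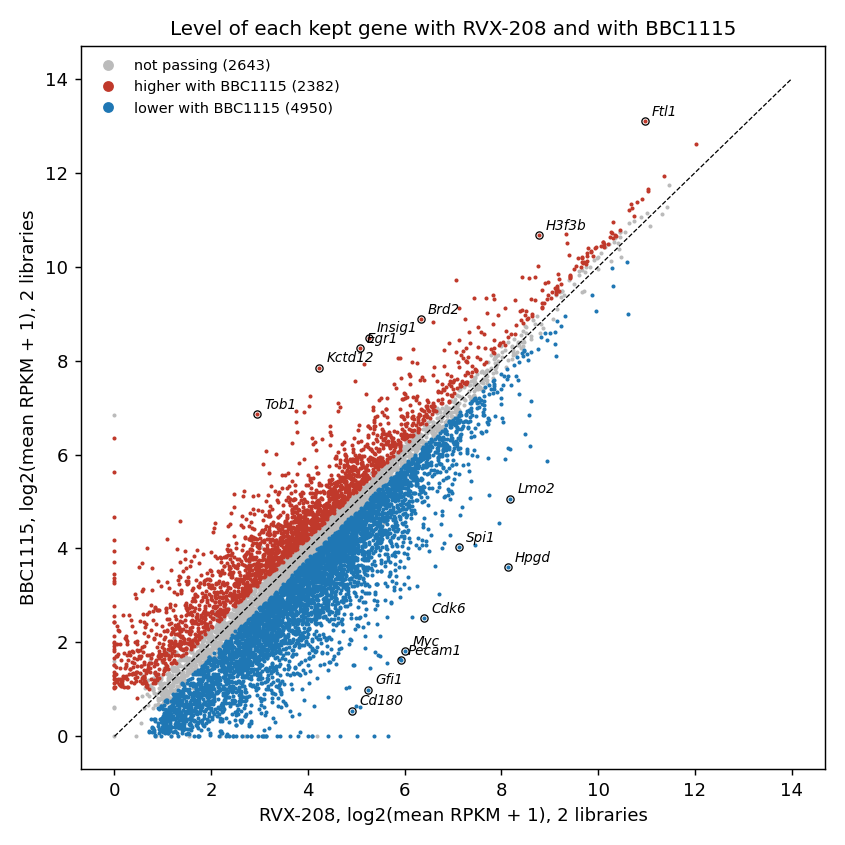
Each point is a kept gene, placed by log2(mean RPKM + 1) over the 2 RVX-208 libraries (horizontal) and over the 2 BBC1115 libraries (vertical), coloured by its call, with the line of equal levels dashed. The 4950 lower genes outnumber the 2382 higher ones, and Hpgd, Pecam1, Cd180, Gfi1 and Myc lie far below the line.

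Among genes with no library at 0, the largest decrease by the fitted log2 fold change was that of Hpgd, which encodes hydroxyprostaglandin dehydrogenase, the enzyme that inactivates prostaglandins. It is a protein-coding gene at chr8:56294585-56321043 on the plus strand in GENCODE M21 on GRCm38, the mm10 assembly. Its RPKM was 286 and 273 with RVX-208 and 11.6 and 10.8 with BBC1115. Each BBC1115 library was thus far below each RVX-208 library, by 25.0 times in the group means, with a log2 fold change of -4.53 ± 0.09 (SE; limma, adjusted p = 1.19e-10). The DMSO libraries held 346 and 315 RPKM and the OTX-015 libraries 74.7 and 64.4, so OTX-015 lay between BBC1115 and the other 2 groups. The test of BBC1115 minus RVX-208, less OTX-015 minus DMSO, gave -2.29 on the log2 scale (limma, adjusted p = 3.07e-06). Its arms start from different groups, so it does not compare BBC1115 with OTX-015 directly.

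Pecam1 encodes an adhesion receptor of leukocytes, platelets and endothelium. Its gene lies at chr11:106654217-106750628 on the minus strand. It was at 60.3 and 58.8 RPKM with RVX-208 and at 2.10 and 2.03 with BBC1115, 28.9 times lower (log2 fold change -4.30 ± 0.10, adjusted p = 1.3e-10). The groups did not overlap, and OTX-015 again lay between, at 7.29 and 6.67 RPKM, with DMSO at 50.4 and 57.9. Most other endothelial genes were near 0: 9 of the 11 endothelial markers looked for were under 1 RPKM in all 4 libraries, Kdr and Emcn at 0 in each. The only other kept marker did not pass, and was called higher after upper-quartile scaling.

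Other genes were among the 15 largest decreases. Cd180, a relative of the Toll-like receptors, went from 28.1 and 29.96 RPKM with RVX-208 to 0.545 and 0.366 with BBC1115, 63.6 times lower. Sla, a Src-like adaptor that dampens receptor signalling, fell 54.8 times, from 29.98 and 31.4 to 0.624 and 0.494 RPKM. Neither gene's groups overlapped, which the rule for the 15 required. Cd33, a sialic acid binding receptor of myeloid cells, stood at 48.1 and 49.8 RPKM with RVX-208 and 1.92 and 1.99 with BBC1115, and Tifab, an inhibitor of TRAF6 signalling, at 59.7 and 58.6 against 1.95 and 2.28. Cd93, Cd28, Tfec, Elk3, Cldn15 and BC035044 were also among the 15 largest decreases, with log2 fold changes from -3.72 to -4.45 among these 6, as were Gfi1, Myc and Cdk6, described with their groups. The rule that chose these 15 took only called genes whose groups did not overlap. Over all kept genes, 88.3% had groups that did not overlap. The adjusted p of the 15 ran up to 1.41e-09 (limma).

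**Figure D2:**
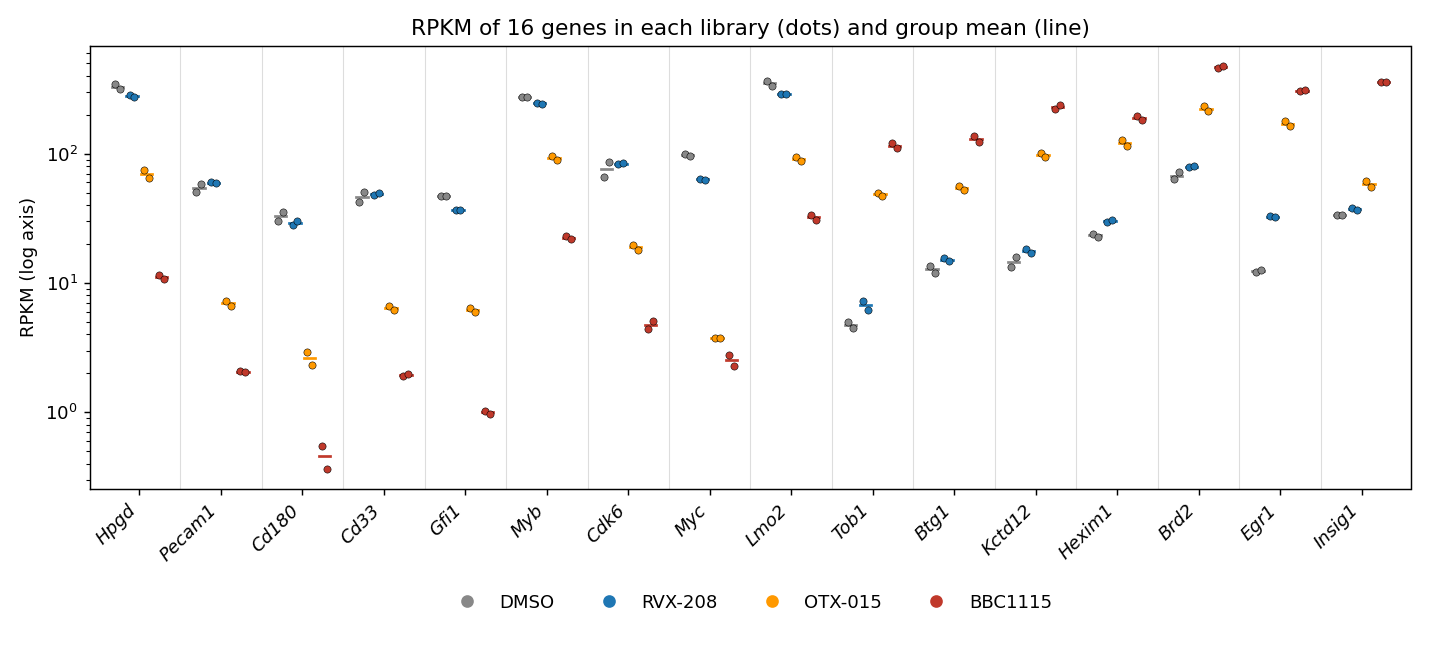
RPKM (log axis) of 16 genes in each of the 8 libraries, as dots coloured by treatment, with a line at each group mean. RVX-208 sits beside DMSO for most genes, OTX-015 is shifted and BBC1115 further. Hpgd is at 286 and 273 RPKM with RVX-208, 74.7 and 64.4 with OTX-015, and 11.6 and 10.8 with BBC1115. Myc is at 3.75 and 3.74 RPKM with OTX-015 and 2.77 and 2.26 with BBC1115.

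Genes long used as readouts of BET inhibition were far apart between the groups. Myc, the growth-promoting transcription factor, was at 64.2 and 62.3 RPKM with RVX-208 and 2.77 and 2.26 with BBC1115, 25.2 times lower (log2 fold change -4.20 ± 0.09, limma, adjusted p = 1.3e-10). Hexim1, which holds P-TEFb inactive, was at 29.7 and 30.8 RPKM with RVX-208 and 196 and 183 with BBC1115, 6.27 times higher (log2 fold change 2.61 ± 0.08, adjusted p = 1.13e-09). Brd2 rose 5.9 times, from 79.3 and 79.6 RPKM to 462 and 476. None of these 3 genes overlapped between groups, as was so for 88.3% of all kept genes. Brd3 was at 17.4 and 17.3 against 13.04 and 12.5 RPKM (-0.42 on the log2 scale, adjusted p = 0.00445), which did not pass under upper-quartile scaling or quantile normalization. In the list of BET, P-TEFb and elongation genes, 10 of 25 kept members rose and 7 fell (10 and 5 under all 4 scalings), with a median log2 fold change of 0.17 against -0.26 for all kept genes. Sertad1 (3.16), a transcriptional coregulator, and Ell2 (1.55), an elongation factor, rose with Hexim1 and Brd2, while the NELF subunit Nelfcd fell (-1.29). In the MYC and MAX network 3 of 11 kept members rose and 5 fell (2 and 3 under all 4 scalings), shares near the 23.9% and 49.6% of all kept genes, and the median was -0.27; 3 fell without either RVX-208 library. Max, the partner of MYC, fell by 0.49 on the log2 scale, Mxd1, a MAX-binding antagonist of MYC, rose by 1.14, and Tfap4, known as a MYC target, went from 8.74 and 7.59 RPKM to 0.152 and 0.125.

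Of 31 kept leukaemia and blood-forming transcription factors, 21 fell and 7 rose (21 and 6 under all 4 scalings), with a median log2 fold change of -1.61 against -0.26; 4 rose without RVX-208 replicate 1 or without BBC1115 replicate 1. Gfi1, a repressor needed for granulocyte development, went from 36.6 and 36.8 RPKM with RVX-208 to 1.01 and 0.978 with BBC1115. Myb, a proto-oncogene of progenitors, went from 249 and 244 to 23.0 and 21.9 RPKM, 11.0 times lower. Lmo2, a bridging protein of blood stem cell complexes, was 8.97 times lower (288 and 291 against 33.6 and 30.9 RPKM). The 2 groups were apart by several times the spread within a group for each of the 3. Cebpe (log2 fold change -3.61), Erg (-3.25) and Spi1 (-3.10), which encodes the myeloid factor PU.1, also fell. Hoxa9 and Meis1 are known as genes downstream of MLL fusions. Hoxa9 was at 69.0 and 71.5 RPKM against 88.3 and 76.8 (log2 fold change 0.23, adjusted p = 0.0488). It did not pass with a pseudocount of 0.1, when low genes were kept in the test (adjusted p = 0.0714), or without either RVX-208 library, either OTX-015 library or BBC1115 replicate 1 (log2 fold changes 0.13 to 0.25). Meis1 was at 12.1 and 13.3 against 12.4 and 12.7 (-0.02, 95% interval -0.22 to 0.19) and passed as higher under upper-quartile scaling (0.26) and quantile normalization (0.28). Pbx3, a HOX cofactor chosen after its values were seen, rose from 33.4 and 35.5 to 69.0 and 67.9 RPKM.

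In the ribosome biogenesis list 49 of 59 kept members fell and 2 rose (48 and 2 under all 4 scalings), with a median log2 fold change of -1.14. Gar1, a protein of the particles that modify ribosomal RNA, went from 41.3 and 42.9 RPKM with RVX-208 to 5.70 and 7.02 with BBC1115. Dkc1, the enzyme of the same particles, went from 56.6 and 58.5 to 11.0 and 11.2, and the rRNA processing factors Wdr12 and Utp20 fell by 2.53 and 2.27 on the log2 scale. The groups were apart for all 4, as for 88.3% of all kept genes. The abundant nucleolar proteins did not pass: Npm1 was at 1019.6 and 991.9 RPKM against 1223.3 and 1105.0 (95% interval -0.04 to 0.45) and Ncl at 208 and 207 against 192 and 192 (-0.29 to 0.06). Both were called higher under upper-quartile scaling, by 0.50 and 0.18, and Npm1 also as TPM, by 0.15.

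Of 74 kept genes of cytosolic ribosomal proteins, 46 rose and 0 fell (20 and 0 under all 4 scalings), with a median of 0.33 against -0.26, but the count moved with scaling, from 74 higher after upper-quartile scaling to 20 higher and 10 lower after quantile normalization. It also fell to 10 without BBC1115 replicate 1, 10 without RVX-208 replicate 1 and 11 without RVX-208 replicate 2. Rplp0, a stalk protein, was at 1622.5 and 1633.6 RPKM with RVX-208 and 2722.0 and 2445.4 with BBC1115, a log2 fold change of 0.66.

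Among genes of polyamine and nucleotide synthesis, 21 of 31 fell and 6 rose (17 and 6 under all 4 scalings), with a median of -0.81. Srm, spermidine synthase, went from 76.2 and 79.3 RPKM to 15.9 and 14.2. Sat1, which breaks polyamines down by acetylation, went the other way, from 134 and 130 to 901 and 783, 6.37 times higher. Neither pair of groups overlapped, as was so for 88.3% of all kept genes. Odc1, the first enzyme of polyamine synthesis and chosen after its values were seen, rose from 112 and 112 to 240 and 228 RPKM. The purine enzyme Atic fell by 1.68 on the log2 scale.

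Antiproliferative genes were among the largest increases. Tob1, an antiproliferative protein whose gene lies at chr11:94211454-94215495 on the plus strand, was at 7.24 and 6.17 RPKM with RVX-208 and 120 and 110 with BBC1115. The groups did not overlap, as the rule for the largest increases required, and the ratio was 17.2 (log2 fold change 3.92 ± 0.10, limma, adjusted p = 2.4e-10). Its relatives Btg1 and Btg2 rose 8.58 and 6.25 times. Gadd45a and Gadd45b, which respond to stress and DNA damage, rose 6.37 and 7.01 times, and Cdkn1a, the p21 inhibitor of cyclin-dependent kinases, went from 72.1 and 68.5 to 255 and 247 RPKM. In all, 16 of 22 kept cell cycle inhibitors and antiproliferative genes rose and 4 fell (16 and 2 under all 4 scalings), with a median of 1.18. Genes with less known links to growth were in the same range: Kctd12, an auxiliary subunit of GABA receptors, rose 12.9 times, and Ccno, an atypical cyclin, 14.9 times. Arl4d, Shf, Frmd6, Nabp1, Baiap2 and Hist1h2bc were also among the 15 largest increases, with log2 fold changes between 2.95 and 3.20.

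Immediate early genes, which growth factors and stress switch on quickly, rose in 27 of 33 cases and fell in 5 (27 and 3 under all 4 scalings), with a median of 1.17. Egr1 was at 32.9 and 32.2 RPKM with RVX-208 and 303 and 311 with BBC1115, 9.44 times higher. Junb and Jund, members of the AP-1 family, rose 6.98 and 7.39 times, and Dusp2, a phosphatase that acts on MAP kinases, rose 8.48 times. Dusp6, another MAP kinase phosphatase, went against them, from 79.8 and 79.3 to 44.9 and 41.3 RPKM (log2 fold change -0.87, adjusted p = 2.93e-06). No group overlap was seen for any of these 5, as for 88.3% of all kept genes.

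Histone genes rose in 26 of 44 cases and fell in 1 (23 and 1 under all 4 scalings), with a median of 0.82. H1f0, a linker histone linked to differentiated cells, went from 94.9 and 93.8 RPKM to 473 and 433, and H3f3b, a replacement H3 gene, from 443 and 429 to 1743.8 and 1521.2. Hist1h2bc rose 9.7 times. H1f0 was also among the genes that RVX-208 itself moved, with 62.8 and 61.4 RPKM in DMSO (adjusted p = 0.0333).

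Cell cycle genes were lower. Of 12 kept genes for G1 cyclins, their kinases and E2F factors, 10 fell and 0 rose (9 and 0 under all 4 scalings), with a median of -0.78. Cdk6, a G1 kinase that leukaemia cells depend on, was at 82.9 and 84.6 RPKM with RVX-208 and 4.39 and 5.05 with BBC1115, 17.7 times lower. Ccnd1 (cyclin D1) was 7.56 times lower and Cdk4 2.38 times lower, while Ccnd2 and Ccnd3 did not pass (log2 fold changes 0.04 and 0.06) but were called higher under upper-quartile scaling (0.32 and 0.35) and quantile normalization (0.28 and 0.17). In DNA replication 36 of 42 fell and 2 rose (27 and 2 under all 4 scalings), with a median of -0.73, led among genes with no library at 0 by Tk1, thymidine kinase, at 63.1 and 62.5 against 8.35 and 8.59 RPKM. Among mitosis genes 29 of 40 fell and 2 rose (21 and 2), with a median of -0.44, which is 0.18 below that of all genes. Bub1b, a spindle checkpoint kinase, fell 3.02 times and Plk1, a mitotic kinase, 2.47 times.

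Receptors and ligands by which leukocytes attach, migrate and sense were mostly lower. Of 26 kept adhesion genes, 23 fell and 1 rose (19 and 0 under all 4 scalings), with a median of -1.05. Itga4, an integrin chain, was 5.51 times lower. Of 11 kept chemokines and chemokine receptors 9 fell and 0 rose (8 and 0), with a median of -2.18. Cxcr4, which holds progenitors in the marrow, went from 68.1 and 67.0 RPKM to 7.82 and 7.99, and Ccl3, a macrophage chemokine, from 121 and 123 to 19.2 and 17.7. Each of these genes was apart between the groups, as were 88.3% of all kept genes.

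Growth factor receptor genes fell in 13 of 17 cases and rose in 2 (10 and 1 under all 4 scalings), with a median of -0.63. Csf1r, the macrophage growth factor receptor, was 14.03 times lower (7.43 and 7.56 against 0.433 and 0.635 RPKM). Kit, the stem cell factor receptor, was 3.58 times lower, and Csf2rb, the shared chain of receptors for interleukins and GM-CSF, 3.77 times. Of 19 kept Toll-like receptor and LPS co-receptor genes 16 fell and 1 rose (16 and 0), with a median of -1.10. Cd14, the LPS co-receptor, was 19.7 times lower and Tlr13, a receptor for bacterial ribosomal RNA in mice, 21.6 times lower.

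Around Hpgd, 13 of 18 kept prostaglandin and leukotriene genes fell and 4 rose (10 and 3 under all 4 scalings), with a median of -0.71; without RVX-208 replicate 1 and without BBC1115 replicate 1, 1 and 2 rose. Tbxas1, thromboxane synthase, was at 9.79 and 10.4 RPKM with RVX-208 and 1.67 and 0.877 with BBC1115. Ltb4r1, a leukotriene receptor, was 8.58 times lower, Ptgir, the prostacyclin receptor, 8.08 times lower, and Pla2g4a, the phospholipase that frees arachidonic acid, 3.34 times lower. The genes named here were taken for their large changes. They were lower, and include enzymes that make these lipids, receptors and Hpgd, which breaks prostaglandins down. The 4 members that rose are not among them. Over all kept genes 49.6% were lower and 23.9% higher.

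**Figure D3:**
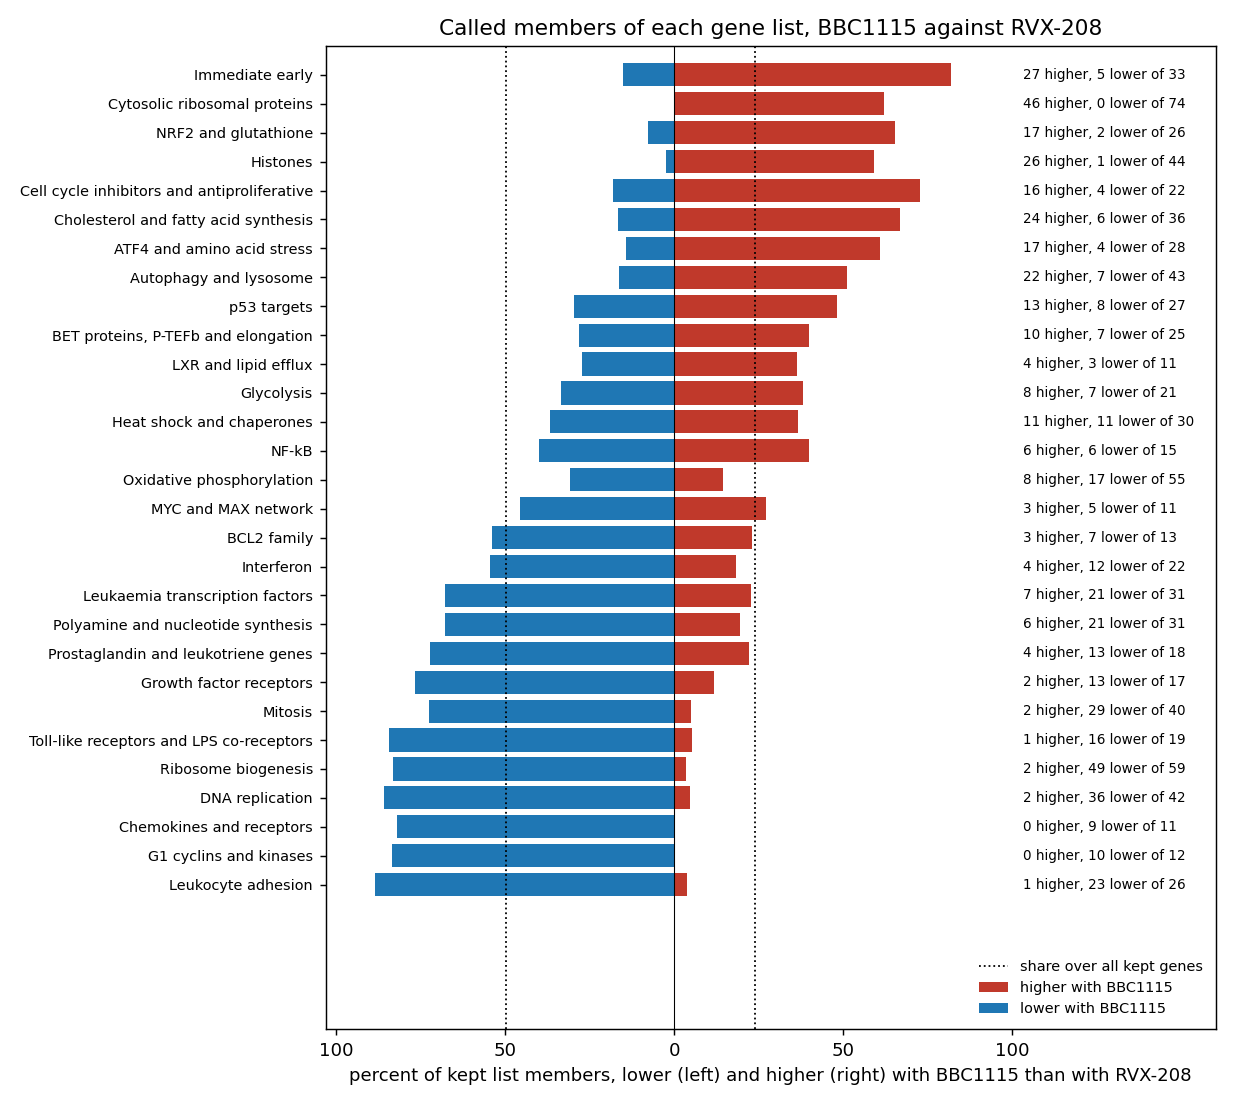
Share of each list's kept members that was called lower (left, blue) or higher (right, red) with BBC1115 than with RVX-208, with the counts at the right and the shares over all kept genes, 49.6% lower and 23.9% higher, as dotted lines. Immediate early genes (27 higher, 5 lower of 33) stand at one end and leukocyte adhesion (1 higher, 23 lower of 26) at the other.

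Most kept genes of the list for cholesterol and fatty acid synthesis rose with BBC1115. When sterols run low in the endoplasmic reticulum, the SREBP factors are known to move to the nucleus and switch on cholesterol synthesis genes. INSIG1 is the protein that holds SREBP back. Insig1, at chr5:28071363-28078662 on the plus strand, was at 38.3 and 36.5 RPKM with RVX-208 and 358 and 356 with BBC1115. The groups were far apart, 9.54 times (log2 fold change 3.22 ± 0.08, limma, adjusted p = 2.51e-10). DMSO held 33.8 and 33.4 RPKM and OTX-015 61.2 and 55.0, so the OTX-015 libraries were nearer to the DMSO libraries than to BBC1115. The difference from RVX-208 to BBC1115, less that from DMSO to OTX-015, was 2.45 (limma, adjusted p = 4.5e-07).

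Idi1 rose 4.02 times, Msmo1 3.35 times and Sc5d 3.28 times, enzymes of the isoprenoid step and of late sterol steps. Sqle, squalene epoxidase, chosen after its values were seen, rose 3.21 times. The list as a whole takes in fatty acid synthesis genes beside those of cholesterol. In it 24 of 36 kept members rose and 6 fell (24 and 2 under all 4 scalings), with a median of 0.91 against -0.26. The test of the difference here less that of OTX-015 against DMSO was higher for 21 of the 36 and lower for 1. Of all genes, 9.34% were higher and 21.9% lower in it. With OTX-015 against DMSO 22 of the 36 were higher (24.2% of all genes were) and 3 lower (40% of all genes), with a median of 0.34 against -0.13. In each comparison most of the list was thus called higher, and the difference was larger for BBC1115 against RVX-208 for most of it.

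Most kept genes of the amino acid stress response driven by ATF4 also rose. ATF4 is translated when stress kinases slow general translation, and it switches on amino acid transport, synthesis and feedback genes. Atf3, a stress-induced factor, was at 0.242 and 0.443 RPKM with RVX-208 and 7.63 and 6.75 with BBC1115. Chac1, which degrades glutathione, went from 2.13 and 1.78 to 11.5 and 11.4, and Trib3, a pseudokinase that feeds back on ATF4, from 1.62 and 1.35 to 9.32 and 8.78. Each was above in both BBC1115 libraries, with log2 fold changes of 2.61, 2.07 and 2.02. Ddit3, the stress factor CHOP, was listed at 0 in both RVX-208 and both DMSO libraries and at 86.5 and 75.0 RPKM with BBC1115; it shares an exon with Mars in the annotation and no fold is given. Atf4 itself (231 and 228 against 678 and 595 RPKM) and Asns, asparagine synthetase (76.6 and 79.4 against 117 and 115), chosen after their values were seen, rose by 1.46 and 0.57 on the log2 scale. Of 28 kept members 17 rose, 4 fell and 7 did not pass, with a median of 0.74. Among those that did not pass, Psat1 was at 194 and 196 RPKM with RVX-208 and 206 and 185 with BBC1115. Phgdh was at 88.2 and 95.5 against 93.8 and 86.3. With OTX-015 against DMSO the same list had 10 higher and 9 lower, where all genes had 24.2% higher and 40% lower. The test of the difference here less that of OTX-015 against DMSO was higher for 21 and lower for 0. Of all genes, 9.34% were higher and 21.9% lower in that test.

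Upstream sequences of 3 of these genes are shown because they hold the ATF4 composite element, searched as TGATGNAA on both strands in RefSeq promoters (GRCm38.p6, 250 bases before and 50 after the gene start). Capitals mark the match, which in Atf3 and Chac1 lies on the opposite strand to the gene.
Atf3, chr1:191183406-191183473, minus strand: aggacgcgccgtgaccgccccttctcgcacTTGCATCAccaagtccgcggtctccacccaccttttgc
Chac1, chr2:119351019-119351086, plus strand: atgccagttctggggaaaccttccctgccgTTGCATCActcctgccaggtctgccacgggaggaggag
Asns, chr6:7693210-7693262, minus strand: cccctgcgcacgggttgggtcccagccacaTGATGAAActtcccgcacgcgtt
The element was in 7 of the 25 list members with a promoter (28%), in 4.51% of the promoters of all 27025 genes and in 2.82% of those of 8148 kept genes. Of 15 members that rose with a promoter, 4 held it, and of 4 that fell, 0. The rest of the 7 were members that did not pass. Among genes at least 2-fold higher it was in 3.05%, and among those at least 2-fold lower in 4.17%. Among genes that did not pass it was in 1.89%. A tie between the element and rising was thus not shown. This was 1 of 5 elements searched, each in 1 list. The sterol regulatory element (TCACNCCAC) was in 1 of 25 cholesterol and fatty acid list promoters (4%) and 1.35% of those of kept genes. The E-box (CACGTG) was in 10 of 52 ribosome biogenesis promoters (19.2%) and 12.3% of those of kept genes. The heat shock element was in 3 of 25 chaperone list promoters (12%) and 0.552% of those of kept genes, in 0 of 9 members that rose and 3 of 8 that fell. A match describes these letters and does not show binding.

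Genes that NRF2 is known to switch on against oxidants rose in 17 of 26 cases and fell in 2, with a median of 0.56. Gclc, the rate-limiting enzyme of glutathione synthesis, went from 24.0 and 23.4 RPKM to 121 and 122. Srxn1, which repairs oxidised peroxiredoxins, went from 10.1 and 9.93 to 46.9 and 46.2, Hmox1, which degrades haem, rose 4.54 times, and Ftl1, the ferritin light chain, went from 1979.0 and 2011.6 to 9509.7 and 8026.7. All 4 were apart between groups, as were 88.3% of all kept genes. Against them, Gsr, glutathione reductase, fell 3.35 times, from 382 and 377 to 115 and 111.
The antioxidant response element, searched as TGACNNNGC on both strands, was in 8 of 22 list promoters (36.4%), in 14% of all promoters and in 17% of those of kept genes. The windows of Txnrd1, thioredoxin reductase, and Prdx1, a peroxiredoxin, follow, with the match on the opposite strand in capitals; these genes, chosen after their values were seen, rose 2.28 and 2.21 times.
Txnrd1, chr10:82859084-82859152, plus strand: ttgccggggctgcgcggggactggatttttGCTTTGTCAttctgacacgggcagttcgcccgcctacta
Prdx1, chr4:116685436-116685504, plus strand: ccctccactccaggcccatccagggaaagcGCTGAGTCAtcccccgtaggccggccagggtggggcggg

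**Figure D4:**
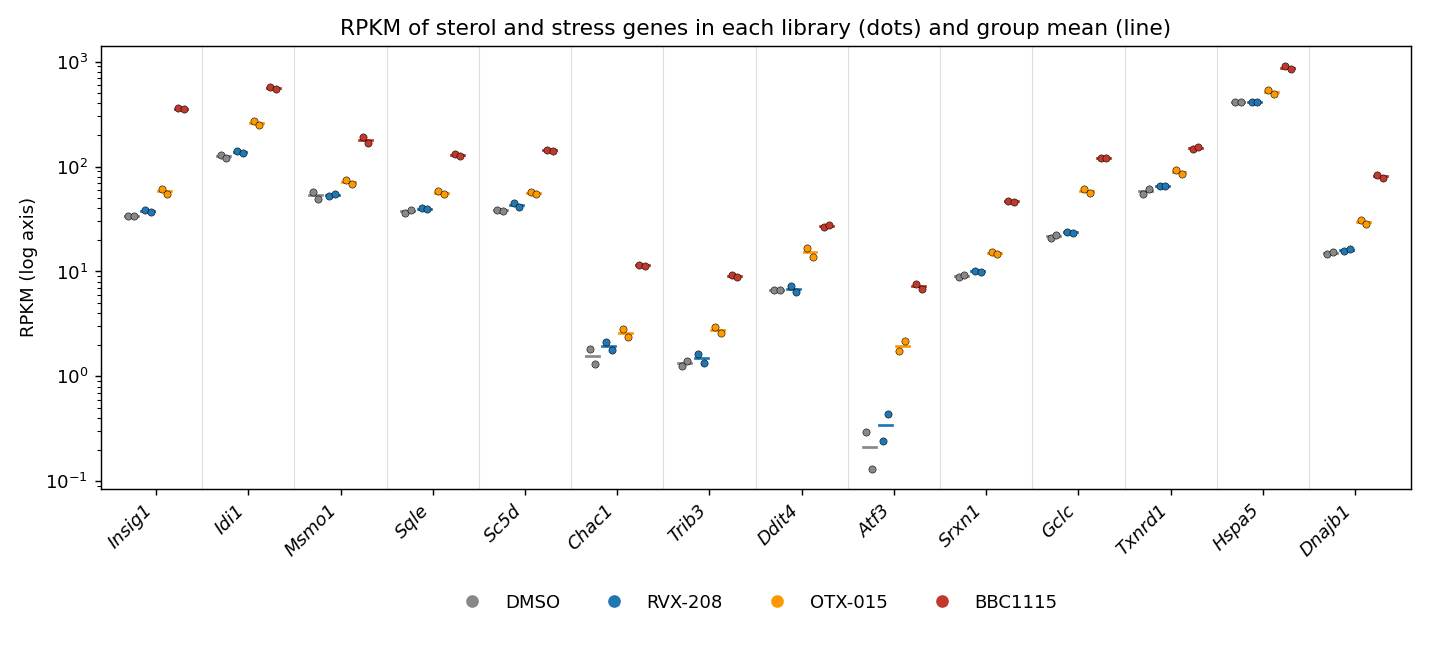
RPKM (log axis) of 14 sterol, stress and chaperone genes in each of the 8 libraries, as dots coloured by treatment, with a line at each group mean. DMSO and RVX-208 lie together, OTX-015 is somewhat higher and BBC1115 is the highest group for every gene, for example Insig1 at 358 and 356 RPKM against 61.2 and 55.0 with OTX-015.

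Chaperone genes were divided. Of 30 kept, 11 rose and 11 fell (8 and 8 under all 4 scalings), with a median of 0.03. Dnajb1 and Hspa1b, cytosolic chaperones induced by heat, rose 5.04 and 8.60 times, and Hspa5, the chaperone BiP of the endoplasmic reticulum, 2.12 times. Hspa9, its mitochondrial relative, fell 2.06 times. With OTX-015 against DMSO, 5 of the 30 were higher and 16 lower, with a median of -0.25 against -0.13 for all kept genes. In the test of the difference here less that of OTX-015 against DMSO, 16 were higher and 1 lower. Of all genes, 9.34% were higher and 21.9% lower in it. The difference thus also holds the lower calls with OTX-015.

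Genes of cell death and survival moved both ways. Bcl2l11, the death-promoting BIM, went from 6.82 and 5.67 RPKM to 33.4 and 34.5, while Bcl2l1 (BCL-XL) and Bcl2, which protect cells, went from 14.6 and 12.2 to 3.26 and 3.05 and from 12.95 and 12.9 to 3.84 and 3.74. The groups did not overlap for any of the 3, as for 88.3% of all kept genes. Bak1 and Bid, which promote death, fell 3.43 and 3.36 times, and Mcl1, a protective gene chosen after its values were seen, rose 2.27 times. In the BCL2 family 3 of 13 rose and 7 fell, shares near those of all kept genes (23.9% and 49.6%), with a median of -0.68. Of 27 p53 targets 13 rose and 8 fell, with a median of 0.24.

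Among autophagy and lysosome genes, 22 of 43 rose and 7 fell (21 and 5 under all 4 scalings), with a median of 0.27. Ulk1, the kinase that starts autophagy, rose 4.40 times and Ctsl, a lysosomal protease, 4.30 times. In the NF-kB list 6 of 15 rose and 6 fell (5 and 4), with a median of 0.10, Nfkbiz 8.34 times higher and Nfkb1 2.67 times lower. Of 22 interferon genes 4 rose and 12 fell (3 and 9), shares near the 23.9% and 49.6% of all kept genes. Their median was -0.40, with Irf7 6.08 times higher and Gbp3 10.3 times lower. In the list of LXR and lipid efflux genes 4 of 11 rose and 3 fell (4 and 2), with a median of 0.03, and Apobr, a receptor for lipoproteins, fell 3.71 times. Glycolysis had 8 of 21 higher and 7 lower (6 and 5), with a median of -0.03. Oxidative phosphorylation had 8 of 55 higher and 17 lower (7 and 5), a direction that turned to 29 higher and 5 lower after upper-quartile scaling. Its counts also moved with single libraries, to 2 higher and 11 lower without RVX-208 replicate 1, 5 and 11 without RVX-208 replicate 2, 1 and 19 without BBC1115 replicate 1, and 14 and 10 without BBC1115 replicate 2.

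The libraries were checked against lineage markers. Myeloid genes were abundant in both groups: Elane, neutrophil elastase, was at 1236.6 and 1220.4 RPKM with RVX-208 and 1201.0 and 1014.0 with BBC1115, and Lyz2, lysozyme, at 385 and 396 against 384 and 346. Neither passed the test, with 95% intervals of -0.44 to 0.13 and -0.32 to 0.12, though both were called lower after quantile normalization (-0.42 and -0.28) and as TPM (-0.21 and -0.16). Among granulocyte markers, 13 of 21 kept fell and 0 rose (11 and 0), with a median of -0.49 and a summed level of 7264 and 7320 RPKM with RVX-208 and 5352 and 4614 with BBC1115. Ms4a3, an early granulocyte gene, went from 283 and 293 to 72.1 and 64.0 RPKM, and Ctsg, cathepsin G, from 1569.3 and 1586.3 to 530.8 and 482.4. Monocyte markers fell in 12 of 17 cases and rose in 2 (9 and 2), with a median of -0.45 and a summed level of 2001 to 2061 RPKM with RVX-208 and 1827 to 2092 with BBC1115. Myeloid progenitor markers fell in 7 of 13 and rose in 2 (7 and 1), not far from the 49.6% lower and 23.9% higher of all kept genes. Their median was -0.47 against -0.26, and Cd34 fell 3.23 times. In bulk RNA, fewer cells of a type and less RNA per cell cannot be told apart.

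Markers of other lineages were scarce, with 1 kept gene each for T and NK cells, B cells, erythroid cells, megakaryocytes, eosinophils and fibroblasts. The summed level of 14 T and NK markers was between 1.57 and 2.42 RPKM in the 4 libraries, with 8 of them, Cd3e among them, at 0 in each. Of 10 B cell markers 5 were at 0 in all 4, with sums from 0.904 to 2.34. All 6 kept mast cell and basophil markers, Kit among them, fell, with sums of 89.9 and 93.9 RPKM with RVX-208 and 38.7 and 39.5 with BBC1115. The part of any change in cell makeup in the results above was not tested.

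Set beside OTX-015 against DMSO, a comparison that shares no library with this one, the differences were alike in direction across genes. Over the 9975 kept genes r was 0.83 and Spearman's rho 0.82, a description across genes, which are not independent replicates. Of 5358 genes called in both, 5226 had the same direction and 132 the opposite. The opposite count ran from 68 to 302 as single libraries were left out, moving by over 1.5 times without either DMSO library, either RVX-208 library or OTX-015 replicate 1, and was 302 without DMSO replicate 2. The 368 genes at least 2-fold higher with OTX-015 (3.69% of those tested) included 352 (95.7%) called higher with BBC1115, and the 970 at least 2-fold lower (9.72%) included 956 (98.6%) called lower. Seen from the other side, 611 of 648 (94.3%) and 1651 of 1786 (92.4%) of the larger differences here were called the same way with OTX-015. The difference was larger here for the genes chosen with OTX-015: their median log2 fold changes were 1.25 with OTX-015 and 1.48 here for the higher, and -1.32 and -1.57 for the lower. Since neither dose is given, this sets these libraries side by side and does not rank the compounds.

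The test of the difference between both comparisons, BBC1115 against RVX-208 and OTX-015 against DMSO, called 932 genes higher (9.34%) and 2186 lower (21.9%). Its arms start from RVX-208 and from DMSO, so any shift between those groups is part of it. Myc did not pass this test: the log2 fold change was -4.20 here and -4.38 with OTX-015 (difference 0.18, limma, adjusted p = 0.305). Hexim1 did not pass either (2.61 and 2.33, adjusted p = 0.102). From DMSO to BBC1115 the log2 fold changes were -4.82 for Myc and 2.97 for Hexim1. From DMSO to RVX-208 they were -0.62 for Myc and 0.36 for Hexim1, of which the latter did not pass. BBC1115 and OTX-015 were not tested against each other. Hpgd (difference -2.29), Cdk6 (-1.93), Myb (-1.84), Spi1 (-1.64) and Cxcr4 (-1.58) fell further from RVX-208 to BBC1115 than from DMSO to OTX-015. Insig1 (2.45), Chac1 (1.59), Srxn1 (1.45) and Junb (1.45) rose further. Ccr2 (0.92) and Srm (0.81) fell less from RVX-208 than they did with OTX-015 from DMSO, and Ccr2 was already lower with RVX-208 than with DMSO.

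Few genes were called in opposite directions. Dusp6 was at 79.8 and 79.3 RPKM with RVX-208 and 44.9 and 41.3 with BBC1115, and at 61.9 and 61.3 with DMSO and 106 and 95.5 with OTX-015. BBC1115 and OTX-015 thus lay on opposite sides of their comparison groups (difference -1.57, adjusted p = 1.91e-05). Xdh, xanthine dehydrogenase, went the same way, with 9.23 and 9.30 against 4.13 and 5.56 RPKM here and 6.02 and 8.52 against 12.0 and 11.0 with OTX-015. Cdc34, a ubiquitin-conjugating enzyme, was higher here (0.58) and lower with OTX-015 (-0.55).

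**Figure D5:**
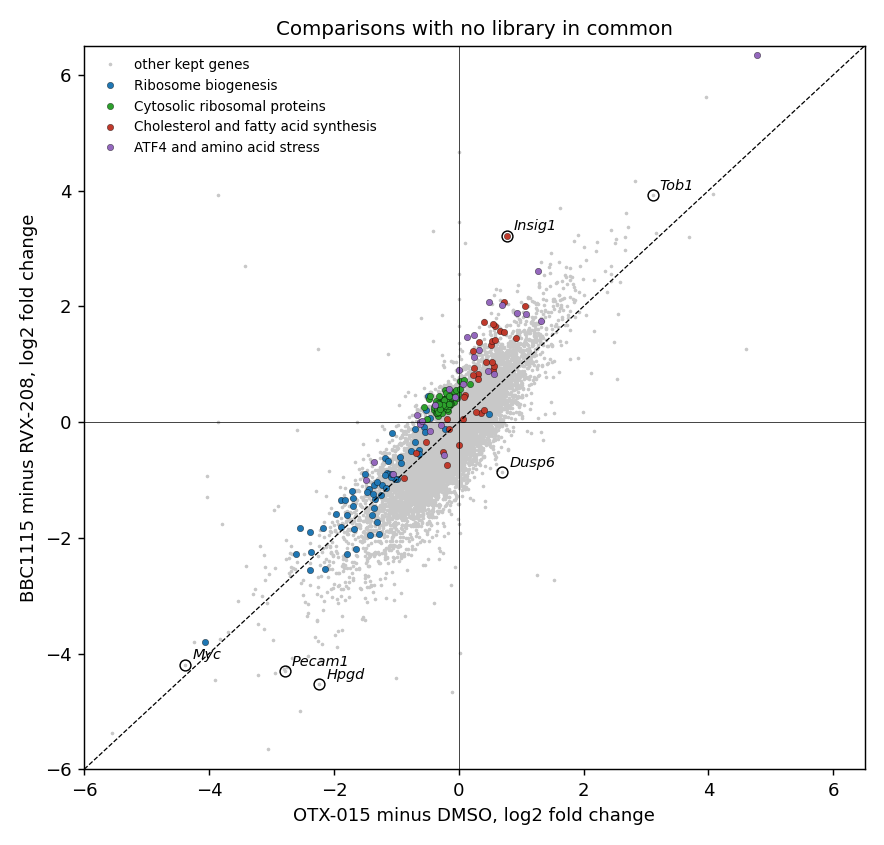
Log2 fold change of each kept gene with OTX-015 against DMSO (horizontal) and with BBC1115 against RVX-208 (vertical), with 4 gene lists coloured, some genes ringed and a dashed line where both are equal. The 5226 genes called in the same direction lie at the lower left and upper right, Insig1 above the line, Hpgd and Pecam1 below it, and Myc near it.

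Some genes had an exact 0 in one group. In 22 kept genes both BBC1115 libraries were listed at 0 while both RVX-208 libraries were at 5 RPKM or more, and 11 genes were the reverse. Mettl3, the RNA methyltransferase, chosen after its values were seen, is one, at 15.4 and 14.6 RPKM with RVX-208 and 0 with BBC1115, and Bysl, a ribosome biogenesis factor, another, at 13.1 and 12.8 against 0. Of these 33 genes 30 (90.9%) shared an exon with another protein-coding gene, against 2179 of 9738 kept genes in the annotation (22.4%). Genes that every cell uses were among them, so such zeros are given as listed, with no fold, and the part of shared exons in them was not tested. Of the genes named above, Cd180, Elk3, Brd2, Junb, Nelfcd, Dkc1, Wdr12, Ccnd1, Ccnd3, Cdk4, Tk1, Csf1r, Itga4, Irf7, Apobr, Bak1 and Bid also share an exon with another protein-coding gene, so their RPKM could hold reads of that partner.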

How the data were processed

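The authors deposited 1 table of RPKM, reads scaled by transcript length and library size, for 20484 gene symbols in 8 columns, 1 for each library, and 0 columns were left out. Per the submitters' processing notes STAR, Cufflinks and the mm10 assembly were used; versions, annotation and strand setting were not found in the labels. Depth was estimated from the lowest RPKM of single-transcript genes, which stand for 1 read, so it is approximate, and no count test was run.

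Samples were grouped by treatment label. Genes reaching 1 RPKM in 2 or more libraries, 9975 in all, were modelled as log2(RPKM + 1) with limma 3.58.1 (R 4.3.3), using 1 mean per group, every library of the 4 groups, a variance trend, 4 residual degrees of freedom and 6.81 prior ones. P-values are two-sided with Benjamini-Hochberg adjustment across the 9975 genes and a threshold of 0.05. Log2 fold changes carry the pseudocount of 1, which understates low genes, and folds are ratios of mean RPKM. With 2 libraries a group, p-values measure the spread between these libraries. The test of the difference between both comparisons, (BBC1115 - RVX-208) - (OTX-015 - DMSO) in the same fit, was added after the data were seen, as was the count under all 4 scalings. The methods were tested on simulated data.

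The members, lists and naming rule were chosen with earlier results of these data known. Named genes are a panel of 22, the 15 largest changes each way (a group mean of 5 RPKM or more, no library at 0, groups not overlapping), up to 5 called and 2 uncalled members of each list, and the extremes of the other comparisons; genes outside the rule are marked in the text, and some that the rule names are not reported here. Gene positions came from GENCODE M21, promoters from RefSeq on GRCm38.p6. Alternatives changed the pseudocount, the filter, the scaling, the libraries in the fit and the replicate block, and left out each library in turn.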

Additional observations from a re-analysis of the deposited data

How the results depend on the processing

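Scaling moved several counts by over 1.5 times. The number of higher genes (2382) became 3688 with upper-quartile scaling and 3745 with quantile normalization, those at least 2-fold higher (648) became 1027 and 1097, and those at least 2-fold lower (1786) became 1063 with quantile normalization; the medians of all genes under these settings were 0.00, against -0.26 as deposited. The genes called in opposite directions in both comparisons (132) became 200 and 204. Leaving out each library in turn gave 1995 to 2504 genes higher, 4422 to 5090 lower, 612 to 655 and 1785 to 1833 past the 2-fold mark, 68 to 302 opposite and a slope of the BBC1115 on the OTX-015 differences of 1.01 to 1.15 (1.11 with all libraries, 1.01 without DMSO replicate 2). Under the pseudocount of 0.1, the other filters, TPM and the fit with only the BBC1115 and RVX-208 libraries the numbers of higher and lower genes, and those past the 2-fold mark, stayed within 1.5 times. The opposite count and the slope were recomputed with the pseudocount of 0.1 (124 and 1.08), both scalings and each library left out, and not under the other alternatives. Where 2 or fewer members of a list were called against its main direction, leaving out a library could take that count to 1 or 0. Of 128 genes named in the text, Psat1 and Phgdh not among them, 119 kept direction and call under all 16 alternatives. The sign and call turned for Meis1 (0.26 with upper-quartile scaling and 0.28 with quantile normalization) and Ncl (0.18 with upper-quartile scaling); the cause was not tested. The replicate numbers are not stated to pair the samples. Same-numbered RVX-208 and BBC1115 libraries had a correlation of deviations of -0.01. Other pairs of groups ran from -0.08 to 0.52, the highest for DMSO with BBC1115. With the replicate block 2486 genes were higher and 5073 lower, and Npm1 passed as higher (adjusted p = 0.0349); the block is not used. RPKM without reads and 2 libraries a group limit what small differences can show.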
